A study of Mus musculus with 12 samples.

Results

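Traj11, Traj9, Traj7, Traj6, Traj5, Traj4 and Traj2 are the 7 joining segments at the 3′ end of the mouse Jα array that have a column in every deposited table (TRAJ11, TRAJ9, TRAJ7, TRAJ6, TRAJ5, TRAJ4 and TRAJ2), out of 43 Traj segments listed there. The rule that picks them goes by position in the array, and the share of each is its column summed over all Trav rows, divided by the total of its own table. The libraries hold Tcra transcripts of CD3e-negative CD4 CD8 double-positive (DP) thymocytes, amplified from total RNA by 5′ RACE with template switching, primed antisense within Trac, the constant segment. Mice that were wild type (WT) or homozygous for a knockout of DPASE (KO) were sampled at steady state or after 1 mg of tamoxifen, at 24 h or 48 h, with 2 libraries in each of 6 groups.

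All groups were 4 to 6 weeks old, on a C57BL/6J background with a TcrdCreER allele of strain 129 origin at the Tcra-Tcrd loci, and the WT controls carried it too. TcrdCreER is a tamoxifen-activated Cre recombinase, and per the genotype field every mouse also had a ZsGreen reporter, Rosa26ZsG/+, whereas the strain field of the same samples reads Rosa26ZsG/ZsG. The libraries of the later samplings came from ZsGreen-positive DP cells, in which Cre had acted, and the steady-state labels name no ZsGreen gate. DPASE is known in the field as a stretch of regulatory DNA near Rag1 and Rag2, which together make the V(D)J recombinase. The comparison asks how much of the Tcra repertoire reached the end of the Jα array in the presence and absence of that element. The design text speaks of groups of 2 mice, and no label ties a library to a single mouse. The p-values therefore set a difference only against the spread of these libraries within their groups, and that spread may be technical. Except where only the groups compared were fitted, the spread is taken over the groups of all samplings.

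A Tcra allele can rearrange repeatedly in a DP thymocyte. The first joins tend to use Traj segments at the 5′ end of the array with Trav segments close to it, and each later join deletes the earlier product and uses a Traj segment farther 3′ with a Trav segment farther 5′. The most 3′ Traj segments are therefore known as products of late rounds, and their use depends on how long a DP cell lives and keeps its recombinase.

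In the GRCm38 genome with the GENCODE M21 annotation, the 7 segments span 10.8 kb of the 60.6 kb array, at chr14:54207139-54217901 on the plus strand, and Traj2 ends 2.62 kb before Trac. Each is annotated as a TR_J_gene, a short coding segment that is spliced to Trac after joining. From 5′ to 3′ they are Traj11 (chr14:54207139-54207197), Traj9 (chr14:54209393-54209450), Traj7 (chr14:54211470-54211528), Traj6 (chr14:54212688-54212749), Traj5 (chr14:54213777-54213838), Traj4 (chr14:54216291-54216353) and Traj2 (chr14:54217836-54217901). Traj3, which is annotated between Traj4 and Traj2, and the pseudogenes Traj8 and Traj1 were not analysed here. The letters below are those of the GENCODE M21 transcripts, which follow the C57BL/6J reference and not strain 129. They are shown whole because the segments are the unit of every value that follows. Capitals mark the stretch that matches a base pattern of the Phe-Gly-X-Gly motif of J regions:
Traj11: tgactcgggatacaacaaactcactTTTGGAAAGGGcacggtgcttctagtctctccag
Traj9: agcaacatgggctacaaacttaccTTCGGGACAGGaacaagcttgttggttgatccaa
Traj7: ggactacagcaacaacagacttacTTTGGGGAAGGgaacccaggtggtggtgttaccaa
Traj6: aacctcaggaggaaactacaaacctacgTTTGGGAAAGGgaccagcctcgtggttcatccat
Traj5: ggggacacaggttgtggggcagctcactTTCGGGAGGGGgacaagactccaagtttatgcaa
Traj4: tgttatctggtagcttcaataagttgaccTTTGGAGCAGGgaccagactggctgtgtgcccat
Traj2: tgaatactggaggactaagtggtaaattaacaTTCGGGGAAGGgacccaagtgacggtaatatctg

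The pattern was searched as TTTGGNNNNGG or TTCGGNNNNGG on the coding strand only, without regard to reading frame. It was found in 7 of the 7 segments and 40 of all 43 (93.0%), so it does not set the 3′ segments apart. In Traj7 it starts at base 25 of 59, against base 26 of 59 in Traj11. Counted from the 3′ end, the Traj7 match is out of the frame of the other members and does not encode Phe-Gly-X-Gly. The 7 segments are 58 to 66 bases long against 57 to 66 in the whole array. Their GC content is 43.9% in Traj2 and 56.5% in Traj5, with a median of 49.2% against 47.6% over the 43 segments.

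The values are fractions of the repertoire, and neither the sequencing depth nor the counted unit is known, so no counting error can be given. In 8 libraries a table's fractions added up to 0.995 to 0.998, its lowest non-zero share lay between 0.000336% and 0.000853%, and 2.17% to 43.2% of the pairs of the 7 segments with a Trav segment stood at 0. The other 4 are the second replicates of WT and KO at 24 h and 48 h. There the fractions added up to 1.97 to 1.99, the lowest non-zero share lay between 0.00401% and 0.00937%, and 63.3% to 88.4% of these pairs stood at 0. Each share here is divided by its table's own total, and pair values of these 4 libraries are far coarser than those of the 8. No table lists DPASE, a Rag gene or any gene that marks DP cells, so the labels of genotype and cell type were not checked. Joins typical of other T cells are given as levels only, with no baseline of other single joins. Trav11-Traj18 of invariant NKT cells took 0 to 0.0462% of the repertoire in WT and 0 to 0.0457% in KO libraries. Trav1-Traj33 of MAIT cells took 0 to 0.0503% and 0 to 0.0430%. Trav segments with a dv name, which the Tcrd locus can also use, took 11.03% to 33.2% in WT and 11.8% to 28.5% in KO libraries. These are joins to a Traj segment, so their level does not mark gamma-delta T cells. It was 23.6% to 33.2% in the 4 libraries with totals of 1.97 to 1.99, and 11.03% to 16.4% in the 8 others.

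At steady state the use of the array fell off towards its 3′ end in KO thymocytes. Traj2, the last segment, was 6.61-fold lower in KO than in WT by the ratio of the group means, Traj4 3.26-fold, Traj5 2.76-fold, Traj6 2.35-fold, Traj7 2.13-fold, Traj9 1.88-fold and Traj11 1.82-fold. By limma on log2(percent + 0.01), a scale that understates the change of rare segments, with Benjamini-Hochberg adjustment at 0.05 over all 43 segments, 6 of the 7 fell. Falls were called in 16.3% of the 43 segments, and 1 of the 7 segments from Traj21 to Traj12 was the remaining call. The median log2 difference was -1.22 over the 7 segments and 0.04 over the 43.

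Traj2 held 2.14% and 2.40% of the 2 WT repertoires and 0.321% and 0.366% of the 2 KO repertoires. The WT values lay far above the KO values, and in KO it became the least used of all 43 segments, against rank 26 in WT. Its log2 difference was -2.69 (SE 0.17, limma adjusted p = 1.68e-06). Traj4 held 2.55% and 3.14% in WT, where it ranked 12 of 43, and 0.804% and 0.941% in KO, where it ranked 38. The groups did not overlap, and the log2 difference was -1.69 (SE 0.22, limma adjusted p = 0.000422).

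Traj5, the least used of the 7 in WT, held 1.16% and 1.39% there and 0.423% and 0.4998% in KO. Traj6 held 2.28% and 2.55% in WT against 0.960% and 1.10% in KO. Both were lower in each KO library than in any WT library, and they fell by 1.45 (SE 0.24) and 1.22 (SE 0.17) on the log2 scale. Traj9 held 2.37% and 2.59% in WT and 1.25% and 1.40% in KO, and fell by 0.90 (SE 0.15). Its WT values were well above the KO values too, and in KO it was the most used of the 7.

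Traj7 held 1.89% and 2.18% in WT and 0.901% and 1.009% in KO. These groups did not overlap either, yet the difference of -1.08 (SE 0.44) did not pass in the fit over all 12 libraries (limma adjusted p = 0.0809), whose spread for Traj7 comes mostly from the later samplings. It passed with the replicate number as a block (limma adjusted p = 0.00615), and without either WT library of 24 h (limma adjusted p = 0.0371). Traj11 held 1.23% and 1.40% in WT and 0.654% and 0.792% in KO. The difference of -0.86 (SE 0.20, limma adjusted p = 0.0119) was the smallest of the 7 and was not called without WT replicate 2 or KO replicate 1 of the steady state (limma adjusted p = 0.128 and 0.135).

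**Figure D1:**
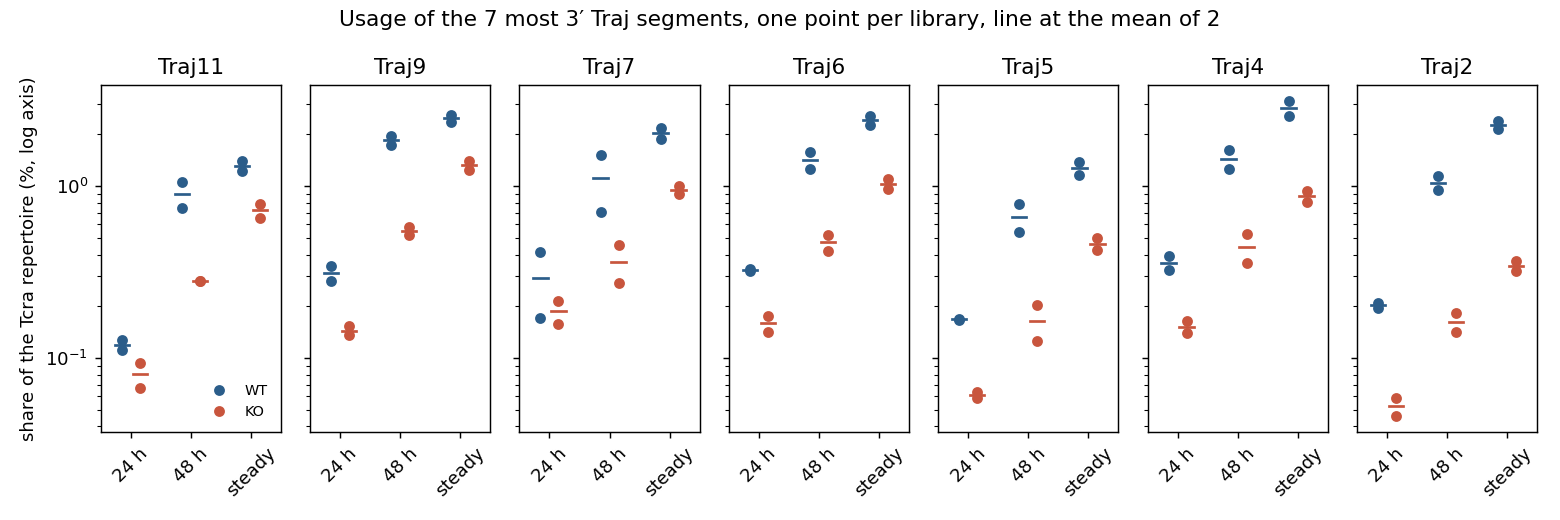
Share of each of the 7 segments in the Tcra repertoire (%, log axis) by sampling, with WT in blue and KO in red, 1 point per library and a line at the mean of 2. KO points lie below the WT points in every panel and sampling except Traj7 at 24 h, where the KO values of 0.216% and 0.159% span the lower WT value of 0.172%.

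In these bulk libraries, fewer cells with a joined segment and fewer transcripts per such cell cannot be told apart. Summed as a description, the 7 segments took 13.6% and 15.6% of the WT and 5.31% and 6.10% of the KO repertoires at steady state. In the 7 segments next to them, Traj21 to Traj12, the WT sum was 1.31-fold the KO sum, against 2.56-fold for Traj11 to Traj2.

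At 24 h after tamoxifen the 7 segments were rare in both genotypes. They summed to 1.84% and 1.72% of the WT and 0.810% and 0.864% of the KO repertoires, and the lower KO level extended over most of the array: 58.1% of the 43 segments fell and 14% rose. Of the 7 segments, 6 fell by limma, a share to be read against that background. The median log2 difference was -1.06 over the 7 and -0.66 over the 43.

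Traj2 held 0.195% and 0.210% in WT and 0.0459% and 0.0587% in KO, a log2 difference of -1.77 (SE 0.17, limma adjusted p = 7.32e-05). The KO values were again far below the WT values, and Traj2 was again the last of the 43 segments in KO. Traj5 held 0.167% and 0.168% in WT and 0.0632% and 0.0588% in KO, and fell by 1.33 (SE 0.24). Its WT libraries were nearly equal, and the groups were well apart.

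Traj4 held 0.323% and 0.391% in WT and 0.140% and 0.164% in KO, and fell by 1.18 (SE 0.22). Traj9 held 0.279% and 0.345% in WT and 0.135% and 0.153% in KO, and fell by 1.06 (SE 0.15). Both had KO values below each WT value. Traj6 held 0.331% and 0.321% in WT and 0.142% and 0.176% in KO, with a log2 difference of -0.997 (SE 0.17), again without overlap. Traj11 held 0.127% and 0.111% in WT and 0.0673% and 0.0940% in KO, with a log2 difference of -0.52 (SE 0.20, limma adjusted p = 0.0397). That call did not hold without replicate 1 of WT at 24 h (-0.44, limma adjusted p = 0.155) or of KO at 24 h (-0.31, limma adjusted p = 0.228), nor without any 1 library of WT at steady state or of KO at 48 h (limma adjusted p = 0.0516 and 0.0536).

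Traj7 was the exception at 24 h. It held 0.412% and 0.172% in WT and 0.216% and 0.159% in KO, so that the groups overlapped, and the difference of -0.51 (SE 0.44) did not pass (limma adjusted p = 0.309). Replicate 2 of each genotype, from the tables that sum to about 2, gave the lower value. With a term for the kind of table the same difference passed (limma adjusted p = 0.0186), as it did without WT replicate 2 at 24 h, where it was -1.11 (limma adjusted p = 0.0353). Without WT replicate 1 at 24 h it was 0.10 and did not pass.

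When each library was centred on its mean log2 value, the median difference of the 43 segments at 24 h moved by 0.53, and 8 fell and 8 rose. On that scale 3 of the 7 segments passed, Traj2 (-1.24), Traj5 (-0.79) and Traj9 (-0.53), while Traj4 (-0.64, limma adjusted p = 0.0573) and Traj6 (-0.46, limma adjusted p = 0.0705) did not. Traj11 (0.0089) and Traj7 (0.03) then had a sign opposite to that on the uncentred scale. Centring moved the medians of the other genotype comparisons by 0.15 at steady state and 0.35 at 48 h and took no member's call there, although the split over all 43 segments changed from 7 falls and 4 rises to 7 and 11 at steady state, and from 16 and 12 to 15 and 19 at 48 h.

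At 48 h after tamoxifen all 7 segments fell in KO by limma, against 37.2% of the 43 segments, with 27.9% risen. The median log2 difference was -1.70 over the 7 and -0.04 over the 43. Summed, the 7 segments took 9.69% and 7.21% of the WT and 2.37% and 2.496% of the KO repertoires.

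Traj2 held 1.15% and 0.954% in WT and 0.141% and 0.184% in KO. The groups were far apart, with a ratio of means of 6.46, and the log2 difference was -2.62 (SE 0.17, limma adjusted p = 2.11e-06). Traj5 held 0.789% and 0.538% in WT and 0.204% and 0.126% in KO, and fell by 1.96 (SE 0.24). It varied more between replicates than at the earlier sampling, without overlap of the groups.

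Traj9 held 1.97% and 1.74% in WT and 0.517% and 0.582% in KO, and fell by 1.74 (SE 0.15). It was the most used of the 7 segments in each of these 4 libraries. Traj4 held 1.62% and 1.26% in WT and 0.356% and 0.530% in KO, and fell by 1.70 (SE 0.22). Traj11 held 1.06% and 0.745% in WT and 0.282% and 0.279% in KO, and fell by 1.63 (SE 0.20). For both, the lowest WT value was more than 2-fold the highest KO value.

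Traj6 held 1.59% and 1.27% in WT and 0.418% and 0.523% in KO, and fell by 1.58 (SE 0.17). Traj7 held 1.52% and 0.708% in WT and 0.454% and 0.273% in KO, with a log2 difference of -1.53 (SE 0.44, limma adjusted p = 0.0127). Its groups were apart here, with replicate 2 again the lower of each pair, and the call was lost without WT replicate 1 (-0.99, limma adjusted p = 0.121) or KO replicate 2 (-1.18, limma adjusted p = 0.0873) at 48 h.

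**Figure D2:**
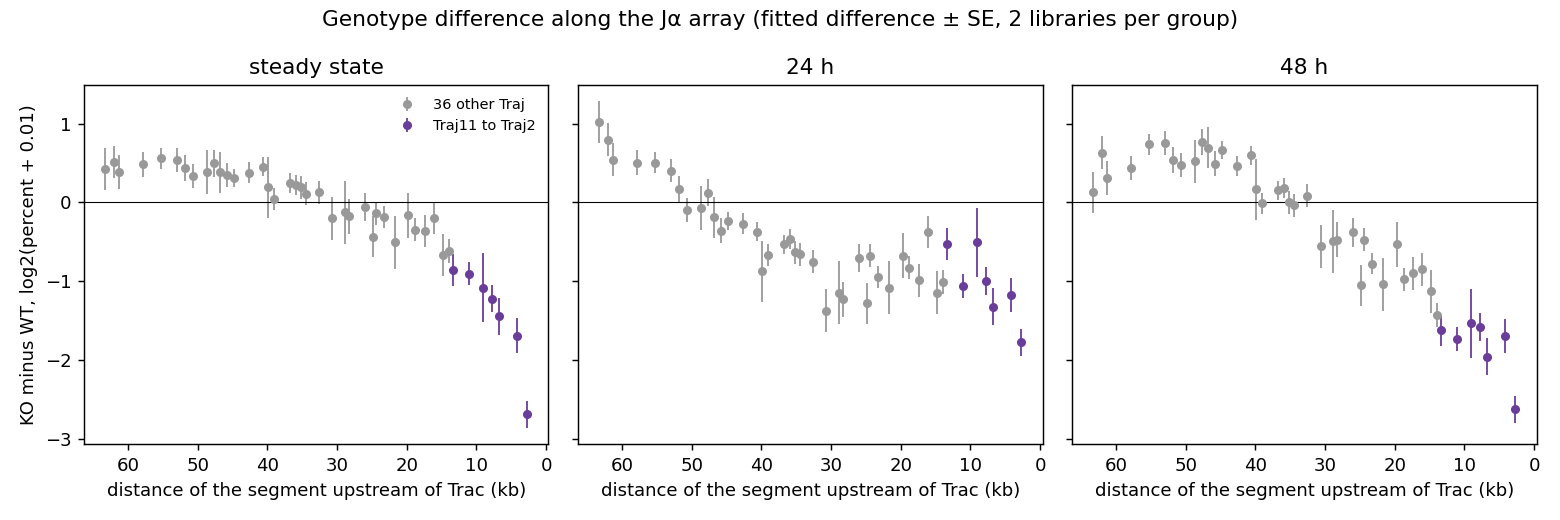
Fitted KO minus WT difference of every Traj segment on the log2(percent + 0.01) scale, with its SE, against the distance of the segment upstream of Trac (kb), at each sampling with 2 libraries per group. Purple points are the 7 segments from Traj11 to Traj2 and grey points the 36 others; Traj2, at the right end, is the lowest point of each panel, at -2.69, -1.77 and -2.62.

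Averaged over the 3 samplings, the log2 differences were -2.36 (SE 0.10, limma adjusted p = 3.31e-08) for Traj2, -1.58 for Traj5, -1.52 for Traj4, -1.27 for Traj6, -1.23 for Traj9, -1.04 for Traj7 and -1.001 for Traj11 (SE 0.12, limma adjusted p = 4.94e-05). All 7 passed, against falls in 51.2% of the 43 segments. This average is built from the 3 comparisons above and is not further evidence beside them. Both KO libraries lay below both WT libraries at all 3 samplings for 6 of the 7 segments, all but Traj7, against 39.5% of the 43.

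The 36 other segments were counted by window along the array. At steady state no fall was called from Traj58 to Traj22, and 4 segments rose: 1 of 4 from Traj58 to Traj53, 2 of 6 from Traj52 to Traj45 and 1 of 5 from Traj44 to Traj39. At 48 h falls began farther 5′, with 3 of 7 from Traj30 to Traj22 and 6 of 7 from Traj21 to Traj12, and the same 3 5′ windows had 2, 5 and 5 rises. At 24 h they began farther still, with 1 of 5 from Traj44 to Traj39, 6 of 7 from Traj38 to Traj31, 7 of 7 from Traj30 to Traj22 and 5 of 7 from Traj21 to Traj12, and rises were called in 4 of 4 from Traj58 to Traj53 and 2 of 6 from Traj52 to Traj45. These window counts are on the uncentred scale, on which 25 of the 43 segments fell at 24 h, against 8 on the centred one.

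The 7 segments did not fall evenly. Traj2 made up 15.7% and 15.3% of their summed use in the WT libraries at steady state and 6.05% and 5.99% in the KO libraries. At 24 h its part was 10.6% and 12.2% in WT and 5.67% and 6.80% in KO, and at 48 h 11.8% and 13.2% against 5.95% and 7.37%. In each sampling both KO values were below both WT values. Traj11 went the other way, with 9.004% and 8.94% of the sum in WT and 12.3% and 13.0% in KO at steady state, and Traj9 with 17.4% and 16.5% against 23.5% and 22.9%. At 48 h Traj11 took 10.9% and 10.3% in WT and 11.9% and 11.2% in KO, and Traj9 20.3% and 24.1% against 21.8% and 23.3%, so that Traj9 overlapped between the genotypes. These parts of a sum are bound to each other and carry no test.

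**Figure D3:**
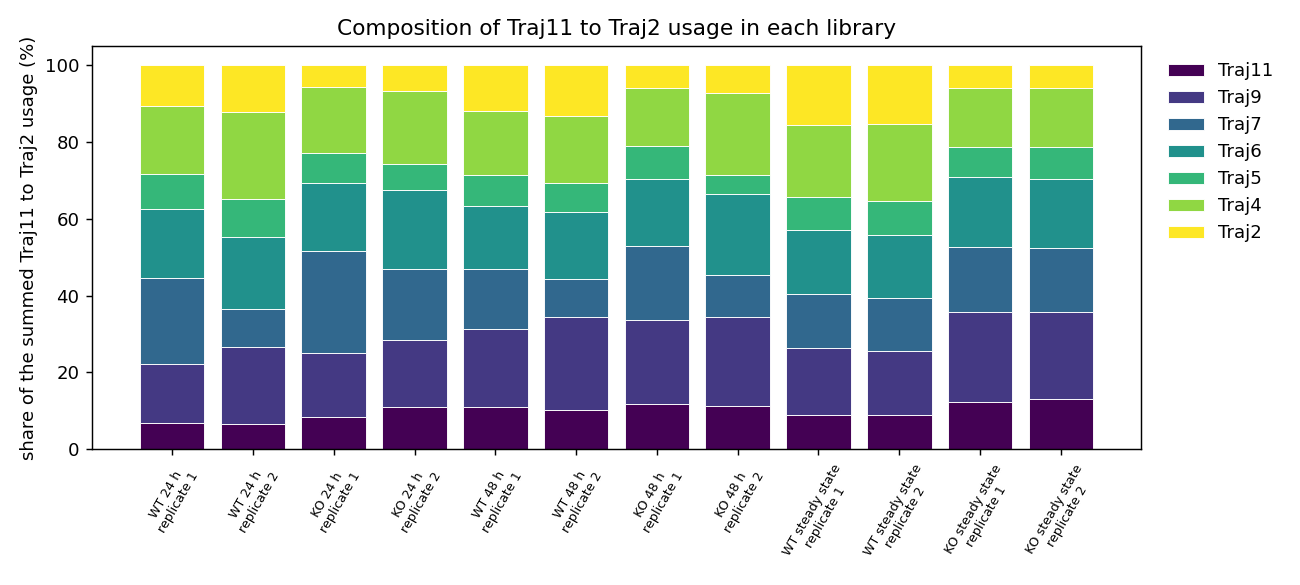
Share of each of the 7 segments in their summed use (%, stacked bars that add up to 100), for each of the 12 libraries. The top block, Traj2, takes 10.6% to 15.7% of the bar in the 6 WT libraries and 5.67% to 7.37% in the 6 KO libraries.

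To place the uneven fall, each segment was compared with its neighbour on the 5′ side within the same library, a comparison added after the data had been seen. At steady state the ratio of Traj2 to Traj4 changed by -0.998 on the log2 scale between KO and WT (SE 0.12, limma adjusted p = 0.00108). It was the single call among 42 such steps (2.38%). The other 6 steps that end in a member ranged from -0.25 to -0.05 and did not pass. With only the 4 steady-state libraries in the fit, 5 of the 7 steps passed. The count over all 42 steps in that fit is not given here. Calls of Traj shares also grew in that setting, from 11 to 28 of the 43 segments. At 48 h the same step was again the single call of the 42, at -0.93 (SE 0.12, limma adjusted p = 0.00192), which did not pass with only the 48 h libraries (limma adjusted p = 0.0965). Without KO replicate 1 at 48 h the steps from Traj6 to Traj5 (-0.87) and from Traj5 to Traj4 (0.87) passed as well. At 24 h it was -0.60 (SE 0.12, limma adjusted p = 0.0405) and did not pass with the replicate block (limma adjusted p = 0.0989), nor without any 1 of the libraries other than those of KO at 48 h (limma adjusted p = 0.0514 to 0.132). It averaged -0.84 (SE 0.07, limma adjusted p = 5.65e-05), where falls were called in 7.14% of the 42 steps, and without KO replicate 1 at 48 h the step from Traj6 to Traj5 (-0.47) was called too.

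Whether the 3′ segments changed by more than the window next to them was tested on their log2 ratio to the summed share of Traj21 to Traj12. At steady state 4 of the 7 fell against that window, with falls in 9.3% of the 43 segments: Traj2 by 2.30 (SE 0.27, limma adjusted p = 5.51e-05), Traj4 by 1.30, Traj5 by 1.06 and Traj6 by 0.84. The ratios of Traj7 (-0.70), Traj9 (-0.52) and Traj11 (-0.47) did not pass, and with the replicate block all 7 did, at limma adjusted p of 0.000873, 0.00408 and 0.0101 for these 3, as did all 7 with only the steady-state libraries. Without WT replicate 2 or without KO replicate 1 at steady state, 1 of the 7 passed.

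At 24 h 1 of the 7 fell against the window (2.33% of the 43). This was Traj2, at -0.92 (SE 0.27, limma adjusted p = 0.0261), which did not pass without WT replicate 2 or without KO replicate 1 at 24 h (limma adjusted p = 0.135 in each). Without the latter, Traj11 rose against the window (0.75, limma adjusted p = 0.0394). The replicate block added Traj5, at -0.47 (limma adjusted p = 0.209 without and 0.0147 with it). With all libraries, Traj11 (0.33) and Traj7 (0.35) had ratios above 0 that did not pass. At 48 h 6 of the 7 fell against the window (16.3% of the 43), from -1.67 for Traj2 (SE 0.27, limma adjusted p = 0.000258) to -0.62 for Traj6, and Traj7 at -0.58 did not pass without the block and did with it (limma adjusted p = 0.104 and 0.00291). The 48 h count was 1 without WT replicate 1 and 3 without WT replicate 2, KO replicate 1 or KO replicate 2. Over the mean of the samplings 5 of the 7 fell against the window (14% of the 43), with Traj2 at -1.63 (SE 0.16), and the block added Traj7 (-0.31, limma adjusted p = 0.00502) and Traj11 (-0.27, limma adjusted p = 0.00875).

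The 7 segments also moved with time after labelling. From 24 h to 48 h they rose in WT by 7.56-fold for Traj11, 5.94-fold for Traj9, 5.19-fold for Traj2, 4.38-fold for Traj6, 4.04-fold for Traj4, 3.96-fold for Traj5 and 3.81-fold for Traj7, as ratios of group means. All 7 passed by limma, against rises in 51.2% of the 43 segments, with log2 differences from 1.90 (Traj5) to 2.80 (Traj11). In KO the ratios were 3.81 for Traj9, 3.48 for Traj11, 3.11 for Traj2, 2.96 for Traj6, 2.91 for Traj4, 2.70 for Traj5 and 1.94 for Traj7. Of these, 6 rose by limma, against 67.4% of the 43. Traj7 (0.89) did not pass without the replicate block and did with it (limma adjusted p = 0.0779 and 0.0295), where 30 of the 43 rose. The block here joins equal replicate numbers across samplings, a link that was not checked. Traj7 also passed without either WT library of 24 h, or without KO replicate 2 of 48 h (limma adjusted p = 0.0315 and 0.0461). Centred on the library mean, which moved the median of the 43 by -0.83 in KO and -0.65 in WT, 7 rose in WT and 5 in KO, where Traj5 was lost (0.43, limma adjusted p = 0.0986). The split over the 43 segments was then 20 falls and 19 rises in WT and 13 and 20 in KO, against 11 and 22, and 8 and 29, before.

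The rise from 24 h to 48 h was smaller in KO for 3 of the 7 segments by limma's test of the difference between genotypes, against 6.98% of the 43. These were Traj11 (-1.10, SE 0.29, limma adjusted p = 0.0213), Traj2 (-0.85, SE 0.24, limma adjusted p = 0.0299) and Traj9 (-0.68, SE 0.21, limma adjusted p = 0.0391). The other 4 had differences from -1.03 (Traj7) to -0.52 (Traj4) that did not pass. The 0.01% added before the log2 shrinks a rise more where its start is lower. At 24 h Traj2 held 0.0459% and 0.0587% in KO against 0.195% and 0.210% in WT. The scale thus makes the KO rise look smaller, and a pseudocount of 0.1% gave 5 calls of the 7. With the replicate block 5 of the 7 passed, Traj7 (limma adjusted p = 0.0204) and Traj5 (limma adjusted p = 0.00395) being the additions. In that fit 28 of the 43 were called, 7 with a negative and 21 with a positive difference. None passed without KO replicate 2 at 24 h, WT replicate 1 at 48 h or KO replicate 1 at 48 h, and 1 passed without KO replicate 2 at 48 h. Traj9 was also lost without any 1 steady-state library (limma adjusted p = 0.0588 to 0.0659) or WT replicate 1 at 24 h (limma adjusted p = 0.0977), and Traj2 without the last (limma adjusted p = 0.0503), where Traj7 passed.

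Between 48 h and steady state, which share the 48 h libraries with the comparison above, the shares differed less in WT. The labels give the steady-state libraries no tamoxifen dose and no ZsGreen gate. Time, treatment and gate therefore cannot be told apart in this comparison. Steady state was higher by 2.16-fold for Traj2, 1.97-fold for Traj4, 1.92-fold for Traj5 and 1.69-fold for Traj6, and these 4 passed by limma (9.3% of the 43), at log2 differences of 1.11, 0.98, 0.95 and 0.76. Traj7 (0.96), Traj11 (0.56) and Traj9 (0.42) did not. The count was 1 without WT replicate 1 at steady state, and 0 without WT replicate 2 at steady state or WT replicate 2 at 48 h. In KO all 7 were higher at steady state than at 48 h (25.6% of the 43). The log2 differences ran from 0.99 for Traj4 to 1.47 for Traj5, with ratios of group means from 1.97 to 2.80. Traj7 was not called without KO replicate 1 or 2 at steady state or KO replicate 2 at 48 h, nor Traj4 without KO replicate 2 at steady state or KO replicate 1 at 48 h (limma adjusted p = 0.061 to 0.219). No member passed limma's test of a difference between genotypes in this comparison (0% of the 43 called, 2 of the 7 at an unadjusted p under 0.05). With the replicate block Traj9 (0.83, limma adjusted p = 0.0796 and 0.0174) and Traj5 (0.51, limma adjusted p = 0.611 and 0.0221) did, among 6 of the 43.

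The order of the 7 levels differed with genotype as well. In WT at steady state Traj4 (2.85% ± 0.42, SD, n = 2), Traj9, Traj6, Traj2 and Traj7 (2.04% ± 0.203) followed each other with overlapping replicates, above Traj11 and Traj5, which also overlapped. In KO Traj9 (1.32% ± 0.106) stood apart from Traj6, which overlapped with Traj7, and Traj7 with Traj4, and then Traj11 (0.723% ± 0.0978), Traj5 (0.462% ± 0.0542) and Traj2 (0.344% ± 0.0314) followed without overlap. At 48 h Traj9 stood apart from Traj4 in WT, and all later neighbours in the WT order overlapped.

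Over the 12 libraries, the segments whose log2 share ran most like that of the 7 summed were Traj12 (Pearson r = 0.974), Traj16 (0.961) and Traj17 (0.959). These points share the 3 samplings and the difference in resolution between libraries, and the values of a library are shares of 1 total.

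The Trav partners of the 7 segments differed between genotypes too. Partner use was counted over the 79 Trav segments listed in all 12 tables. By their order along the locus, 26 lie farthest from the Jα array (distal), 26 in the middle (central) and 27 nearest to it (proximal). This order follows the reference genome and was not checked for the strain from which the TcrdCreER allele came. Segments whose names differ by the letter d can lie in different zones, such as Trav7d-4 (distal) and Trav7-4 (central). How well reads were assigned between such segments was not tested. At steady state the distal zone supplied 41.6% and 44.2% of the joins of the 7 segments in WT and 29.8% and 31.3% in KO. The proximal zone supplied 19.5% and 14.7% in WT and 29.3% and 26.8% in KO, and the central zone 38.9% and 41.2% against 40.9% and 41.9%. KO joins to the 3′ segments thus held fewer distal and more proximal Trav segments, with no overlap, while the central zone overlapped. The shift was not limited to the 7 segments. For Traj21 to Traj12 the distal part was 38.4% and 40.5% in WT against 30.3% and 32.1% in KO, and the proximal part 20.8% and 16.3% against 25.7% and 22.2%. For the 36 other segments pooled the distal part was 25.7% and 26.8% in WT against 20.8% and 22.1% in KO.

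As levels in the repertoire at steady state, joins of the 7 segments with distal Trav were 3.53-fold lower in KO, with central Trav 2.43-fold and with proximal Trav 1.52-fold. For Traj21 to Traj12 the ratios were 1.62, 1.21 and 0.999 in the same order. At 48 h the 3 ratios of the 7 segments were 5.45, 4.32 and 2.17, and those of Traj21 to Traj12 2.81, 2.10 and 1.24. The distal level behind the first of these was 3.19% and 1.36% in WT, which lie far apart, and 0.407% and 0.427% in KO. Without WT replicate 1 at 48 h the 3 ratios of the 7 segments were 3.26, 3.42 and 2.43, so that the distal one was then below the central one. At 24 h, where the 7 segments joined proximal Trav in 57.2% and 59.7% of cases in WT and 61.5% and 59.3% in KO, the ratios of the 7 were 2.56, 2.05 and 2.06 and those of Traj21 to Traj12 2.04, 2.04 and 1.67.

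For each of the 7 segments by itself, the distal part of its joins was lower in both KO than in both WT libraries at steady state, as it was in 97.7% of the 43 segments. Traj4 had 41.2% and 44.1% distal partners in WT and 26.49% and 29.2% in KO. This was a difference of -14.8 percentage points (SE 2.41, limma adjusted p = 0.00613), the single call of the 43 (2.33%). It was not called without WT replicate 2 or without KO replicate 1 at steady state (limma adjusted p = 0.106 and 0.104).

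Traj2 had 36.9% and 39.6% in WT and 22.7% and 25.4% in KO, which made it the segment of the 7 with the fewest distal partners in each of these 4 libraries. Traj5 had the most in WT, 45.6% and 47.2%, against 31.7% and 32.9% in KO. Traj6 had 42.98% and 45.9% in WT and 29.3% and 30.6% in KO. The remaining 3 segments, Traj11, Traj9 and Traj7, lay between 41.6% and 45.2% in WT and between 30.9% and 33.5% in KO. These 6 differences, from -14.5 to -10.1 points, did not pass in the fit over 12 libraries, and all 7 passed with only the 4 steady-state libraries, where 29 of the 43 segments did. Without either WT library of 48 h, 5 of the 7 and 12 of the 43 passed.

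Against the pooled distal part of Traj21 to Traj12, a comparison added after the data had been seen, Traj4 was lower by 6.59 points in KO (SE 1.80, limma adjusted p = 0.0237). It was the single fall (2.33% of the 43 segments, with 34.9% risen), and was not called without WT replicate 2, KO replicate 1 or KO replicate 2 at steady state. With only the steady-state libraries 6 of the 7 fell (7 of the 43, with 25 risen), and without either KO library of 24 h Traj2 passed beside Traj4 (-5.95 points, limma adjusted p = 0.0496). At 24 h and 48 h no member passed this comparison by limma (0% and 2.33% of the 43 fell, with 41.9% risen at 48 h, 1 of the 7 at an unadjusted p under 0.05 in each), and over the mean of the samplings Traj4 did (-4.26 points, SE 1.04, limma adjusted p = 0.00814), with falls in 2.33% and rises in 46.5% of the 43. Without WT replicate 1 at 24 h Traj11 passed at 24 h, and without KO replicate 1 at 24 h Traj2 did. Without WT replicate 1 at 48 h, Traj4 fell and Traj7 rose at 48 h, and without WT replicate 2 Traj9 fell. Over the mean, 3 passed without WT replicate 1 at 24 h, and 2 without KO replicate 1 at 24 h or WT replicate 2 at 48 h.

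At 48 h Traj4 was again below, with 29.8% and 25.4% distal partners in WT and 15.5% and 12.4% in KO, a difference of -13.7 points (SE 2.41, limma adjusted p = 0.00281). It was the single member among the falls (20.9% of the 43), and did not pass with only the 48 h libraries (limma adjusted p = 0.105). For Traj9 the values were 35.4% and 17.6% in WT and 18.6% and 11.4% in KO, which overlap, and the difference of -11.5 points did not pass without the replicate block and did with it (limma adjusted p = 0.125 and 0.0396). The values differ here with the kind of table: in WT the distal part of the 7 segments pooled was 33.4% in replicate 1 and 19.4% in replicate 2. Without WT replicate 2 at 48 h, 5 of the 7 and 24 of the 43 segments fell in distal partners.

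At 24 h no segment passed (0% of the 43 by limma, and 0 of the 7 at an unadjusted p under 0.05). Values there rest on few pairs. Traj2 in KO replicate 2 had 4 Trav partners above 0 and none of them distal, against 19 to 56 partners in the WT libraries and 75 to 79 at steady state. Over the mean of the samplings, 4 of the 7 had fewer distal partners in KO (37.2% of the 43): Traj4 (-10.6 points, limma adjusted p = 0.00108), Traj2 (-9.93), Traj6 (-8.60) and Traj9 (-8.18). The count was 2 without WT replicate 2 or KO replicate 1 of the steady state, or KO replicate 2 at 48 h, and 6 without WT replicate 2 at 48 h (30 of the 43). The call of Traj9 was lost without any 1 library of the steady state or of 24 h, or KO replicate 2 at 48 h (limma adjusted p = 0.0635 to 0.145). That of Traj2 was lost in the 3 fits that left 2, at limma adjusted p of 0.0517 to 0.0578, and under both other definitions of the distal measure. With the Trav segments split into 39 distal and 40 proximal ones, Traj2 differed by -3.38 points (limma adjusted p = 0.519), and by the mean Trav rank its limma adjusted p was 0.0836.

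**Figure D4:**
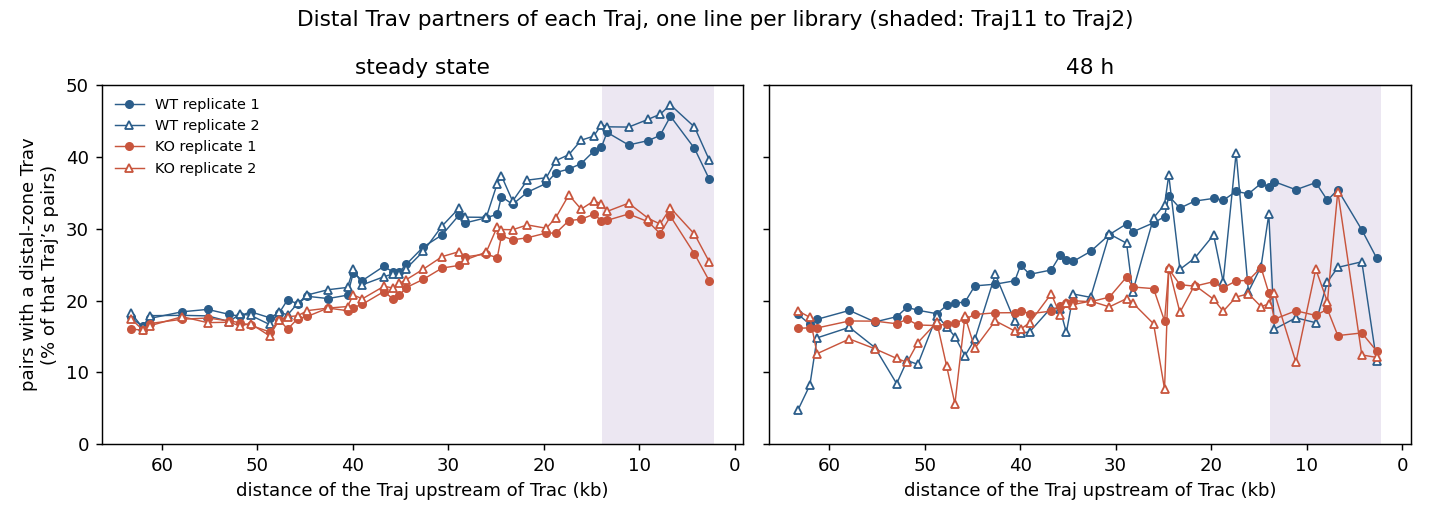
Percent of each Traj segment's joins that use a distal-zone Trav, against the distance of the segment upstream of Trac (kb), at steady state and 48 h, with 1 line per library and the 7 segments shaded. At steady state the WT lines run above the KO lines throughout the shaded stretch, at 36.9% to 47.2% against 22.7% to 33.5%; at 48 h WT replicate 2, from a table that sums to about 2, drops to between 11.6% and 25.4% there.

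At the level of single joins, 553 pairs of the 79 Trav segments with the 7 segments were among the 3397 pairs tested. At steady state 434 of the 553 were lower in both KO than in both WT libraries and 15 were higher, against 28.2% lower and 31.5% higher among the 3397. The pairs that were lower included 78 of the 79 pairs of Traj2, 66 of Traj4, 62 of Traj7, 60 of Traj5, 59 of Traj6, 56 of Traj9 and 53 of Traj11. By zone they were 178 of 182 distal, 173 of 182 central and 83 of 189 proximal pairs. At 24 h 84 of the 553 were lower, a smaller part than the 17.7% among the 3397. By zone these were 21 of 182 distal, 20 of 182 central and 43 of 189 proximal pairs, so the proximal part was then the largest. At 48 h 155 of the 553 were lower, a larger part than the 14.7% among the 3397. These were 52 of 182 distal, 56 of 182 central and 47 of 189 proximal pairs, which differ little between zones. Higher pairs numbered 5 at 24 h and 2 at 48 h, against 5.59% and 13.4% of the 3397. At 3 samplings together 27 were lower (2.27% of the 3397), with most pairs of the coarser tables at 0.

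By limma over 3397 pairs, 10 pairs fell at steady state (0.294%), and 10 of these 10 were joins of the 7 segments: 7 of Traj2 and 1 each of Traj4, Traj6 and Traj9. The distal zone held 7 of them and the central zone 3. The join of Trav13d-1 with Traj2 had shares of 0.0745% and 0.0953% in WT and 0.00570% and 0.0107% in KO, a log2 difference of -2.39 (SE 0.28, limma adjusted p = 0.0320). Its KO values lay far below both WT values. Further falls were those of Trav7-4, Trav7d-4, Trav4d-3, Trav10d, Trav16d-dv11 and Trav14d-2 with Traj2 and of Trav7d-3 with Traj4, at -1.87 to -1.63. The count varied widely with the fit. With the replicate block it was 0, with only the steady-state libraries 263 (of 366 called among the 3397), and with 1 library left out between 0 and 91, being 0 without any 1 of the steady-state or 24 h libraries or of the KO libraries at 48 h, and 91 (of 92) without either WT library at 48 h.

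No pair passed by limma at 24 h or at 48 h (0% of 3397). At an unadjusted p under 0.05 there were 11 and 124 of the 553 member pairs, against 187 and 510 of all 3397. With the replicate block 30 member pairs passed at 48 h, of 56 among the 3397. Without KO replicate 1 of 48 h 34 member pairs passed of 105, without WT replicate 1 57 of 246, and without WT replicate 2 59 of 70. Over the mean of the samplings 30 member pairs fell, out of 37 among the 3397 (1.09%): 14 of Traj2, 6 of Traj4, 3 each of Traj6 and Traj9, 2 of Traj11 and 1 each of Traj5 and Traj7. The join of Trav13d-1 with Traj4 was among them, at 0.0821% and 0.113% in WT and 0.0185% and 0.0309% in KO at steady state, and 0.0449% and 0.0661% against 0.00638% and 0.00721% at 48 h. Its KO values were below the WT values at each of these samplings, and the mean log2 difference was -1.52 (SE 0.19, limma adjusted p = 0.0195). This count fell to 0 without any 1 of the steady-state libraries, WT replicate 2 at 24 h or a KO library at 24 h, was 13 without WT replicate 1 at 24 h or KO replicate 2 at 48 h, 67 (of 129) without WT replicate 1 at 48 h, and 217 (of 294) without WT replicate 2 at 48 h.

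The leading Trav partners of the 7 segments at steady state were the same 3 in both genotypes. Trav7-3, of the central zone, made up 4.63% and 4.93% of their joins in WT and 5.36% and 5.18% in KO. Trav12d-2, of the distal zone, made up 3.97% and 4.47% in WT and 3.61% and 4.18% in KO. Trav7-4, of the central zone, made up 3.53% and 3.46% in WT and 4.17% and 4.15% in KO. The parts of Trav7-3 and Trav7-4 were higher in both KO libraries, and those of Trav12d-2 overlapped.

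The proximal Trav14-1 made up 2.30% and 2.06% of the joins in WT at steady state and 3.77% and 3.24% in KO, and it was among the 3 leading partners in WT at 24 h, with 6.01% and 5.51%. Trav15-2-dv6-2 led at 24 h and 48 h through replicate 2 alone. It made up 16.8% to 24.8% of the joins of the 7 segments in the 4 tables that sum to about 2 and 0.311% to 2.15% in the 8 others. The part of Trav15d-2-dv6d-2 was likewise 5.75% to 14.4% in these 4 tables and 0.142% to 0.627% in the 8. Other Traj segments differed between the kinds of table too. All Trav segments with a dv name made up 23.5% to 33.6% of their joins in the 4 tables and 12.3% to 16.5% in the 8. Kind of table and replicate number cannot be told apart at 24 h and 48 h.

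**Figure D5:**
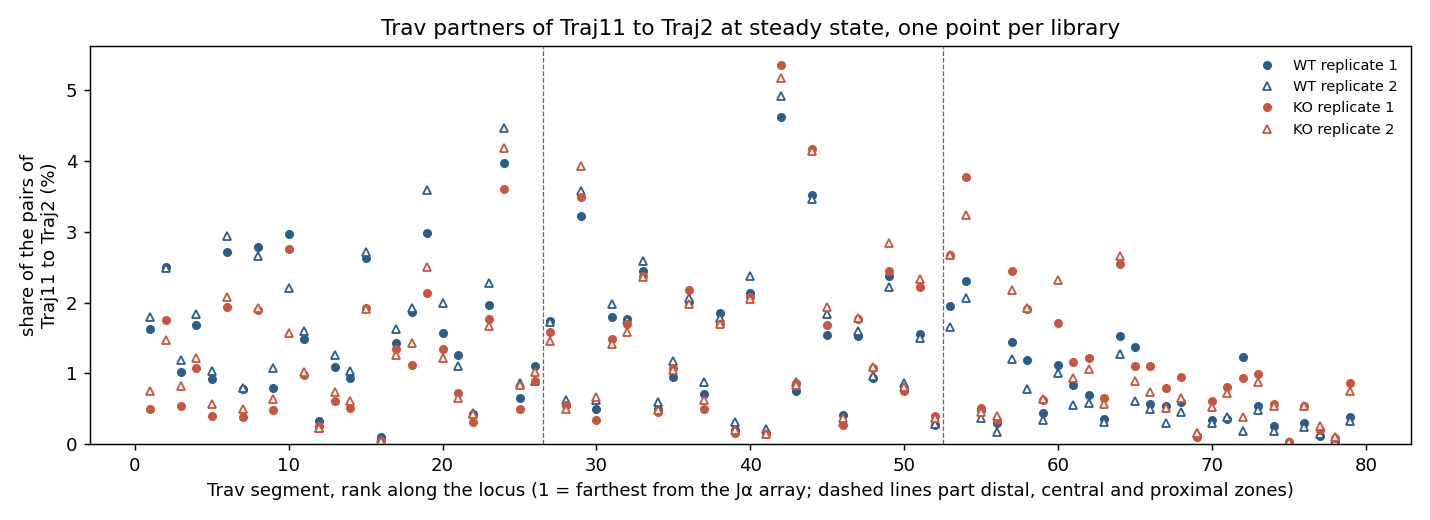
Percent of the joins of Traj11 to Traj2 that use each of the 79 Trav segments at steady state, against the rank of the Trav segment along the locus (1 is farthest from the Jα array), with WT in blue and KO in red and 1 symbol per library. Dashed lines part the distal, central and proximal zones; the highest point is Trav7-3, at 4.63% to 5.36%.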

How the data were processed

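The authors deposited, per library, a table of fractions, per the file headers a Trav by Traj grid. Aligner, genome build and counted unit: not given in the sources used here. Each fraction was divided by its table's total, expressed as a percent and summed per Traj. Of 85 Trav segments, the 6 not listed in all 12 tables were left out of pair and partner tests but not of the Traj shares. Over all Traj segments, the Trav segments kept held 98.3% and 95.2% of the steady-state WT and 98.9% and 96.6% of the steady-state KO repertoires. Zone parts are therefore parts of an incomplete total, and the position of the 6 along the locus is not given here. Trav order came from GENCODE M21 for 77 segments, and from the tables' row order for Trav9-3 and Trav13-5.

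In limma 3.58.1 (R 4.3.3), each of the 6 groups had its own mean in a single model of the 12 libraries, on log2(percent + 0.01), or on percentage points for distal partners, with 6 residual degrees of freedom. Adjusted p-values run over all 43 Traj segments, 42 steps or 3397 pairs, and a call is an adjusted p under 0.05. Scripts were tested on simulated data. Python 3.11.15, pandas 2.3.3 and numpy 2.4.6 computed the descriptions, and matplotlib 3.10.9 drew the figures. The segments and lists were chosen with earlier results of these data known.

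The labels give both genotypes the replicate numbers 1 and 2. Deviations of same-numbered WT and KO libraries from their group means correlated at 0.948 (steady state), 0.666 (24 h) and 0.415 (48 h) over 43 segments, and at 0.464, 0.652 and 0.564 over 3397 pairs. The correlation was above 0.1 in each of the 3 pairs of groups. For comparisons between genotypes, also of their changes between samplings, the block was therefore treated as a pairing. At 24 h and 48 h replicate 2 of both genotypes is also the table that sums to about 2. There a pairing and the kind of table cannot be told apart, in these correlations or in calls made with the block. The pairing is inferred from the data because no label states what a number shares. For comparisons of samplings within a genotype, the block was a single term for replicate number over all samplings, and that link was not checked.

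All 7 segments are named. Of the pairs called, the 8 largest differences without overlap of the groups could be named per comparison, and of the partners the 3 leading ones per group. Alternatives were pseudocounts of 0.001% and 0.1%, filters on a mean share of 0.5% (Traj) or 0.02% (pairs), rescaling to the shared Trav segments, centring, the replicate block, only the groups compared, a term for the kind of table, other definitions of the distal zone, and leaving out each library.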

Additional observations from a re-analysis of the deposited data

Results flagged for a closer look

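The change from 24 h to 48 h differed between genotypes by limma's test of that difference for Traj11 (-1.10 on the log2 scale, SE 0.29, adjusted p = 0.0213), Traj2 (-0.85, SE 0.24, adjusted p = 0.0299) and Traj9 (-0.68, SE 0.21, adjusted p = 0.0391). A negative value is a smaller rise in KO. With only the 24 h and 48 h libraries in the limma fit the adjusted p-values were 0.0892, 0.0892 and 0.110. Traj11 rose from 0.127% and 0.111% to 1.06% and 0.745% in WT, and from 0.0673% and 0.0940% to 0.282% and 0.279% in KO.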

How the results depend on the processing

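Counts below are of the 7 segments, or of their 553 pairs, called by limma. On the centred scale 3 segments passed at 24 h, and Traj11 had a difference of 0.00894 there in place of -0.52, the single change of sign of a called result among those for single segments, steps and pairs (3242 kept their call, 303 lost it and 115 gained one). Changes of sign where neither setting gave a call, such as Traj7 at 24 h (-0.51 and 0.03), are not counted. The replicate block raised the count of smaller KO rises from 24 h to 48 h to 5 and of differences between 48 h and steady state to 2, the ratios to Traj21 to Traj12 to 7 at steady state and 2 at 24 h, the pairs at 48 h to 30 and distal partners at 48 h to 2. It lowered the steps at 24 h to 0 and the pairs at steady state to 0, and of 182 results for single segments and steps it changed 15 calls and no other. With only the groups compared the counts were 0 and 1 for the 2 differences between genotypes across samplings, and 7 (steady state) and 0 (24 h) for the ratios. Pairs at steady state gave 263, and distal partners 7 and 0 at steady state and 48 h. Steps gave 5, 0 and 0 at steady state, 24 h and 48 h. Distal partners against Traj21 to Traj12 gave 6 at steady state. A term for the kind of table gave 6 and 1 for the differences across samplings. It gave 78 pairs at 48 h, 100 pairs for the mean and 2 for distal partners at 48 h.

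A pseudocount of 0.1% gave 5 for the difference from 24 h to 48 h, 0 and 3 for the ratios at 24 h and 48 h, 0 for steps at 24 h, and 58, 16 and 63 pairs at steady state, at 48 h and for the mean. A pseudocount of 0.001% left 0 pairs at steady state and 2 for the mean, the filter of 0.02% left 0 and 1, and centring 1 and 7. Rescaling to the shared Trav segments gave 0 steps at 24 h. With the Trav segments split into 39 distal and 40 proximal ones, distal partners at 48 h gave 6, and with the mean Trav rank 5, and 1 and 2 against Traj21 to Traj12 at 48 h and for the mean. Leaving out 1 library moved the segments called from 5 to 7 at steady state and at 24 h and from 6 to 7 at 48 h, the difference from 24 h to 48 h from 0 to 4 and WT steady state against 48 h from 0 to 5. It moved ratios from 1 to 6 at steady state, 0 to 1 at 24 h and 1 to 6 at 48 h, and pairs from 0 to 91 at steady state, 0 to 59 at 48 h and 0 to 217 for the mean. For distal partners it gave 0 to 5 at steady state, 1 to 5 at 48 h and 2 to 6 for the mean, and against Traj21 to Traj12 0 to 2, 0 to 1 and 0 to 2 at the 3 samplings and 1 to 3 for the mean. For steps it gave 0 to 1 at 24 h, 1 to 3 at 48 h and 1 to 2 for the mean.

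A library left out leaves its group with 1, which is assumed to vary like the others. Centring cancels in ratios and steps, and pseudocounts, rescaling and centring do not enter distal parts, so these were not run. Traj5 has a mean share under 0.5% and was not tested under that filter. Depth is unknown, and rare joins in the 4 tables that sum to about 2 are limited by a lowest share of 0.00401% to 0.00937%.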

Other observations

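Trav segments with the suffix d, 33 of the 79, made up 51.9% and 55.2% of the joins of the 7 segments in steady-state WT and 43.001% and 44.3% in steady-state KO libraries. At 48 h their part was 46.2% and 40.4% in WT and 27.0% and 28.4% in KO, and in both samplings the KO values lay below the WT values. At 24 h it was 20.8% and 27.4% in WT and 19.7% and 29.7% in KO, which overlap. For Traj21 to Traj12 the values of the steady state were 47.7% and 49.8% in WT and 42.2% and 43.9% in KO. Their values at 48 h were 46.9% and 44.6% in WT and 33.3% and 32.6% in KO. For all Traj segments other than the 7, those at 48 h were 33.9% and 31.7% in WT and 26.0% and 24.2% in KO. The lower KO part was thus not limited to the 7 segments. These are descriptions with no test. They also depend on how reads were assigned between segments with and without the suffix, which was not checked.

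Joins of the 7 segments that were at 0 in both libraries of a group numbered 8 of 553 for steady-state WT and 12 for steady-state KO. The 24 h groups had 108 (WT) and 223 (KO) such joins and the 48 h groups 11 (WT) and 58 (KO).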
